A study of Mus musculus with 6 samples.

Results

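Type I interferon-stimulated genes were examined in AOM/DSS-induced colorectal tumors of Trp53fl/fl and VP mice. The 39 genes were picked by name from a table of 54167 genes, and all 39 were found in it, with Ddx58 listed under that symbol. They comprise the receptor chains of type I interferon, the transcription factors that act below the receptor, sensors of foreign nucleic acid and the antiviral proteins whose genes the pathway induces. They were listed by name, with earlier results of these tumors known.

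RNA-seq had been performed on 6 tumors from male C57BL/6J mice, 3 of each genotype. Trp53fl/fl mice carry loxP sites around part of Trp53 on both alleles and no Cre, and served as the controls. VP mice are Pvillin-Cre + Trp53fl/fl and carry the same floxed alleles together with Cre under the villin promoter, which is active in the intestinal epithelium. Mice of both genotypes received azoxymethane (AOM, a colon carcinogen) at 10 mg/kg when 8 weeks old and then repeated periods of 7 days with 2.5% dextran sulfate sodium in the drinking water (DSS, an irritant of the colonic lining), and tumors were taken at day 98. Because whole tumor tissue was extracted, the RNA comes from tumor epithelium and from the stromal and immune cells around it, in which the villin promoter is not active. No untreated colon and no Cre-positive tumor with intact Trp53 is among the 6 samples. The labels do not say whether each tumor came from a separate mouse, so p-values measure the spread between these tumors, which may in part be technical.

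Type I interferons signal through a receptor of the chains IFNAR1 and IFNAR2, whose kinases JAK1 and TYK2 phosphorylate STAT proteins. STAT2 and IRF9 are parts of the factor ISGF3, which binds interferon-stimulated response elements in promoters and induces a large set of antiviral genes. In the gut the pathway responds to viral and microbial nucleic acid and to nucleic acid released by damaged cells.

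The values are TPM, a unit of transcript abundance that is divided by transcript length, so that levels of different genes can be set side by side. The TPM of every tumor were scaled to the same total and the number of reads per tumor is unknown, so no counting error can be attached to a value. Between 14857 and 15234 genes reached 1 TPM in a tumor. Trp53 was listed at 125, 99.3 and 147 TPM in Trp53fl/fl tumors and at 38.5, 32.8 and 27.8 TPM in VP tumors, in the direction of the labels, a log2 fold change of -1.87 ± 0.18 (SE, n = 3 per genotype, limma adjusted p = 0.0207). The adjusted p lay between 0.0561 and 0.108 without Trp53fl/fl replicate 1 or 3 or VP replicate 1 or 2. Differences below are VP minus Trp53fl/fl on the log2(TPM + 1) scale from limma, fitted over the 15117 genes that reached 1 TPM in 3 or more tumors, and p-values were adjusted over all of them (Benjamini-Hochberg). On this scale the change of a gene of few TPM is understated. A lone value in parentheses after the TPM of a gene is its log2 fold change.

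Most of the 39 genes stood higher in VP tumors, but no single one passed the adjusted test. All 39 reached 1 TPM in each of the 6 tumors, so none entered through 1 genotype alone, and the lowest value of any was 1.25 TPM. The difference was positive for 36 genes and negative for Ifnar1, Ifnar2 and Ddx58, with a median of 0.78 on the log2 scale against -0.07 over all genes tested. At an unadjusted limma p under 0.05, 26 genes were higher in VP tumors and 0 were lower. That is 66.7% of the 39, beside 4.51% of all genes tested that were higher and 8% that were lower at the same threshold. For 23 genes (59.0%) all 3 VP tumors lay above all 3 Trp53fl/fl tumors, beside 6.03% of all genes tested, and for 0 genes all VP tumors lay below, beside 13.3% of all genes tested. At an adjusted p under 0.05 limma called 25 genes in all (0.165%), 12 higher and 13 lower, and 0 of the 39, whose lowest adjusted p was 0.168.

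The split of the 25 calls moved with the scaling, to 13 higher and 9 lower after median-of-ratios rescaling and to 12 higher and 25 lower after division by 12 epithelial genes. The latter also shifted the median of all genes from -0.07 to -0.23, relative to which the median of the 39 genes stood 0.84 higher, beside 0.85 in the deposited scaling. With limma array quality weights, whose estimation stopped before it converged, 13 of the 39 genes passed the adjusted test, beside 323 genes in all. The 26 genes became 18 after division by the epithelial genes, beside 2.02% of all genes tested. They became 16 without VP replicate 2, beside 3.19%.

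**Figure D1:**
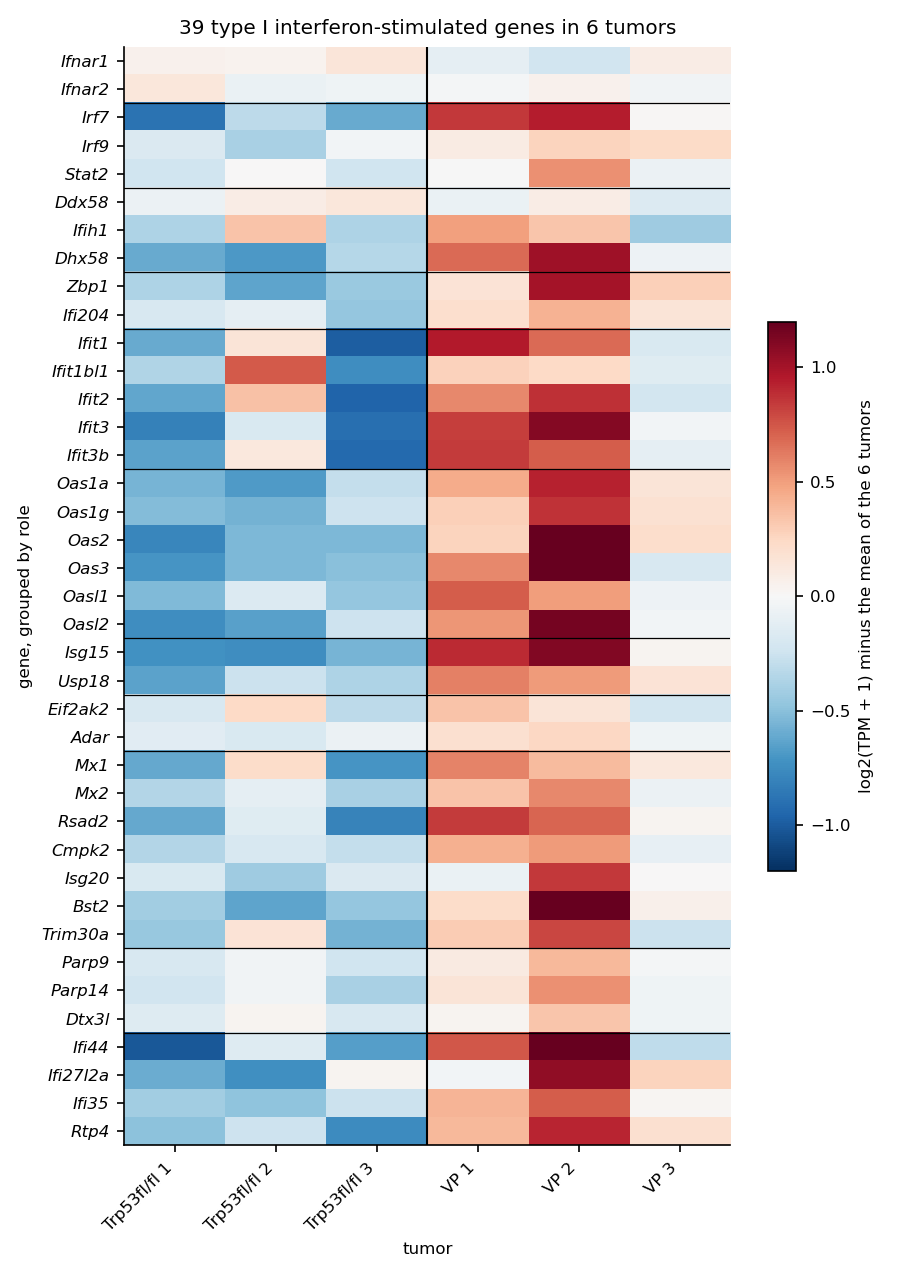
Level of each of the 39 genes (rows, grouped by role) in each of the 6 tumors (columns). Color gives log2(TPM + 1) minus the gene's mean over the 6 tumors, and values beyond the ends of the scale take its end color. VP replicate 2 was the highest of the 6 tumors for 27 genes, and the rows of Ifnar1, Ifnar2 and Ddx58 stay pale.

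The tumors of one genotype were not alike. Averaged over the 39 genes, log2(TPM + 1) was 4.06, 4.31 and 4.09 in the Trp53fl/fl tumors and 4.89, 5.19 and 4.48 in the VP tumors, so that the genotypes did not overlap in this mean and VP replicate 3 came closest to the controls. VP replicate 2 was the highest of all 6 tumors for 27 genes. VP replicate 3 was the lowest VP tumor for 34 genes and the highest of the 6 for 0. The median SD of the 39 genes on the log2 scale was 0.18 within Trp53fl/fl tumors and 0.39 within VP tumors, whereas over all genes tested it was 0.20 and 0.18. The SD was the larger in VP tumors for 31 of the 39 genes (79.5%), beside 47.8% of all genes tested. Among Trp53fl/fl tumors replicate 2 was the highest for 23 genes, among them the IFIT genes, Ifih1 and Mx1, and replicate 3 was the highest for 13, among them Irf9, Ifi27l2a and the Oas1 genes.

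Promoter sequences of the genes are shown next, because the response element recognized by ISGF3 is what the pathway's target genes share by sequence. Windows from 250 bases before to 50 bases after the transcription start were taken from RefSeq (GRCm38.p6) and searched on both strands for GAAA, any 2 bases, GAAA, where neighboring matches may overlap. Of the 39 genes 28 had an entry, and 15 of these (53.6%) held the motif, 7 of them at least 2 times in 1 window. Counted by window and not by gene, 17 of the 36 windows of these 28 genes held it. Among all 32851 windows 1131 (3.44%) held it, and 0.225% held it at least 2 times. The 11 genes without an entry were Dhx58, Zbp1, Ifi204, Oas2, Usp18, Mx1, Mx2, Parp9, Parp14, Ifi27l2a and Rtp4. The 6 genes with the smallest limma p among those with the motif are printed below, on the strand of the gene from 5′ to 3′, with the motif in capitals (read on the opposite strand as TTTC, 2 bases, TTTC) and up to 25 bases on either side, ending before the transcription start.
Isg15: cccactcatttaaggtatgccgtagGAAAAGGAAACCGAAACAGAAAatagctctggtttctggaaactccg
Oas1a: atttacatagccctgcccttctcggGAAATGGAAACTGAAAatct
Oas1g: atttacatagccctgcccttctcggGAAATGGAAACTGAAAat
Ifit3: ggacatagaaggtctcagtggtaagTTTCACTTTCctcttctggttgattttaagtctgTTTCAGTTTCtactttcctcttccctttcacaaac
Rsad2: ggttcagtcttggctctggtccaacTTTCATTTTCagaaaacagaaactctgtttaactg
Bst2: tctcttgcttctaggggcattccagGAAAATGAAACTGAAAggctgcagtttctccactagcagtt

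In GRCm38.p6 these windows lie at chr4:156200850-156200921 for Isg15, chr5:120907526-120907570 for Oas1a, chr5:120887614-120887656 for Oas1g, chr19:34583348-34583441 for Ifit3, chr12:26456538-26456597 for Rsad2 and chr8:71537562-71537627 for Bst2. The Ifit3 window is on the plus strand and the other 5 are on the minus strand. Isg15 holds 3 overlapping matches, which start 78, 72 and 66 bases before its transcription start. Oas1a and Oas1g hold 2 overlapping matches each, within 20 bases of the start, and their windows are identical over the 43 bases printed for Oas1g. The matches of Ifit3 do not overlap and start 156 and 122 bases upstream, and Rsad2 holds a single match at 120 bases. Bst2 holds 2 overlapping matches at 130 and 124 bases. Among the 28 genes with an entry, 9 of the 15 with the motif and 7 of the 13 without it were higher in VP tumors at an unadjusted limma p under 0.05. The median log2 fold change was 0.96 with the motif and 0.56 without it. Irf7, Ifi35, Ifi44 and Oasl2 were among those without a match, which says only that these letters are not in this window.

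Neither gene of the receptor passed the unadjusted threshold, and the genotypes overlapped in both. Ifnar1, the chain that binds TYK2, was at 36.5, 36.3 and 39 TPM in Trp53fl/fl tumors and at 32.6, 29.95 and 37.6 TPM in VP tumors, with a log2 fold change of -0.16 and a 95% confidence interval from -0.44 to 0.12. After division by the epithelial genes it was -0.33 (limma unadjusted p = 0.0361, adjusted p = 0.172). Ifnar2, the chain that binds JAK1, was at 30.5, 26.1 and 26.7 TPM and at 27.2, 28.6 and 26.8 TPM, with a difference of -0.01 and an interval from -0.27 to 0.25. Both genes lie on chromosome 16 within 134.7 kb.

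Of the 3 factors below the receptor, Irf7 and Irf9 were higher in VP tumors at an unadjusted p under 0.05. Irf7, which amplifies interferon production and is itself induced by ISGF3, was at 45.7, 68.3 and 55.9 TPM in Trp53fl/fl tumors and at 154, 164 and 86.1 TPM in VP tumors. All 3 VP tumors lay above the controls, replicate 3 the closest, and the means were 56.6 ± 11.3 and 135 ± 42.6 TPM (SD, n = 3 each). The log2 fold change of Irf7 was 1.20 ± 0.27 (SE, limma unadjusted p = 0.00267, adjusted p = 0.242). Irf9, the DNA-binding part of ISGF3, was at 36.6, 31.3 and 40.5 TPM and at 44.3, 49.8 and 48.5 TPM, again without overlap but with a difference of 0.39 ± 0.13 (SE). Stat2 was at 21.2, 25.3 and 21.3 TPM and at 25.1, 37.3 and 24.1 TPM, where only VP replicate 2 stood clear of the controls (0.32, limma unadjusted p = 0.133).

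Among the cytosolic RNA sensors, the genes of the 2 that signal overlapped between the genotypes and the gene of the third did not. Ddx58, which encodes RIG-I, was at 22.5, 25.3 and 26.3 TPM in Trp53fl/fl tumors and at 22.4, 25.4 and 21.1 TPM in VP tumors, a difference of -0.10 with a 95% confidence interval from -0.40 to 0.19. Ifih1, which encodes MDA5, was at 9.65, 16.4 and 9.60 TPM and at 18.3, 16.3 and 9.20 TPM. Its tumors overlapped widely, with a difference of 0.26 and an interval from -0.44 to 0.97. Dhx58, which encodes LGP2, a relative of the other two that lacks their signaling domains, was at 9.22, 8.66 and 11.3 TPM and at 23.98, 30.6 and 13.9 TPM. All VP tumors lay above the controls for Dhx58, with a difference of 1.09 ± 0.27 (SE, limma unadjusted p = 0.00512, adjusted p = 0.275).

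Both sensors of DNA and Z-form nucleic acid were higher in VP tumors at an unadjusted p under 0.05. Zbp1, which binds Z-form nucleic acid and can start necroptosis, was at 51.7, 43.0 and 49.1 TPM in Trp53fl/fl tumors and at 75.7, 135 and 82.2 TPM in VP tumors. The means were 47.9 ± 4.45 and 97.7 ± 32.7 TPM (SD, n = 3 each), which gave a log2 fold change of 0.97 ± 0.22 (SE, limma adjusted p = 0.246). Ifi204, a DNA-binding protein of the p200 family, was at 3.33, 3.61 and 2.59 TPM and at 4.69, 5.63 and 4.52 TPM, a difference of 0.51 without overlap.

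All 6 OAS genes were higher in VP tumors at an unadjusted p under 0.05, and in all 6 the genotypes did not overlap. OAS enzymes make 2′-5′-linked oligoadenylates on double-stranded RNA, which activate RNase L, while OASL1 and OASL2 are their relatives. Oas1a, the most abundant, was at 45.4, 41.7 and 55.2 TPM in Trp53fl/fl tumors and at 91.7, 129 and 75.0 TPM in VP tumors, with a log2 fold change of 1.01 ± 0.21 (SE, limma unadjusted p = 0.00182, adjusted p = 0.199). Its close paralog Oas1g was at 24.2, 23.4 and 29.5 TPM and at 43.1, 64.8 and 39.9 TPM (0.89). Reads of such a pair can be assigned to either gene, and their summed TPM differed by 0.98 (limma adjusted p = 0.204). Oas2 was at 3.14, 3.91 and 3.89 TPM and at 7.59, 17.5 and 7.25 TPM (1.24). Oas3 was at 4.99, 5.73 and 5.91 TPM and at 13.5, 24.2 and 7.54 TPM (1.16). In both of these VP replicate 2 stood far above the other tumors. Oasl1, a repressor of Irf7 translation, was at 15.2, 19.9 and 15.9 TPM and at 37.9, 32.2 and 21.4 TPM (0.78). Oasl2 was at 28.7, 30.7 and 41.1 TPM and at 70.9, 109 and 47.6 TPM (1.09). Oas1a, Oas1g, Oas2 and Oas3 lie within 177.2 kb on chromosome 5, and Oasl1 and Oasl2 lie within 40.98 kb elsewhere on it.

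The IFIT genes encode proteins that bind viral RNA without the cap marks of the host. The 5 genes lie within 99.32 kb on chromosome 19 (34550694 to 34650009, GRCm38), and 3 of them were higher at an unadjusted p under 0.05. Ifit3 was at 9.57, 15.3 and 8.89 TPM in Trp53fl/fl tumors and at 31.8, 38.8 and 17.1 TPM in VP tumors, with a log2 fold change of 1.26 ± 0.32 (SE, limma adjusted p = 0.278), and was the only IFIT gene without overlap. Its near copy Ifit3b was at 4.27, 7.93 and 3.29 TPM and at 13.7, 12.6 and 6.59 TPM (0.97), and the sum of the pair differed by 1.22 (limma adjusted p = 0.297). Ifit1 was at 9.25, 16.4 and 6.85 TPM and at 29.1, 23.95 and 12.7 TPM (0.96). In Ifit3b and Ifit1 the highest Trp53fl/fl tumor, replicate 2, reached above VP replicate 3. Ifit1bl1 was the most abundant IFIT gene, at 69.3, 149 and 52.9 TPM and at 108, 105 and 80.6 TPM, with a difference of 0.24 whose interval ran from -0.60 to 1.08. Here Trp53fl/fl replicate 2 was the highest of all 6 tumors. The summed TPM of Ifit1 and Ifit1bl1, most of it from Ifit1bl1, differed by 0.36 (limma unadjusted p = 0.353, adjusted p = 0.684). This sum therefore says little about Ifit1 alone. Ifit2, at 5.83 to 23.3 TPM over the 6 tumors, differed by 0.82 (limma unadjusted p = 0.0774).

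**Figure D2:**
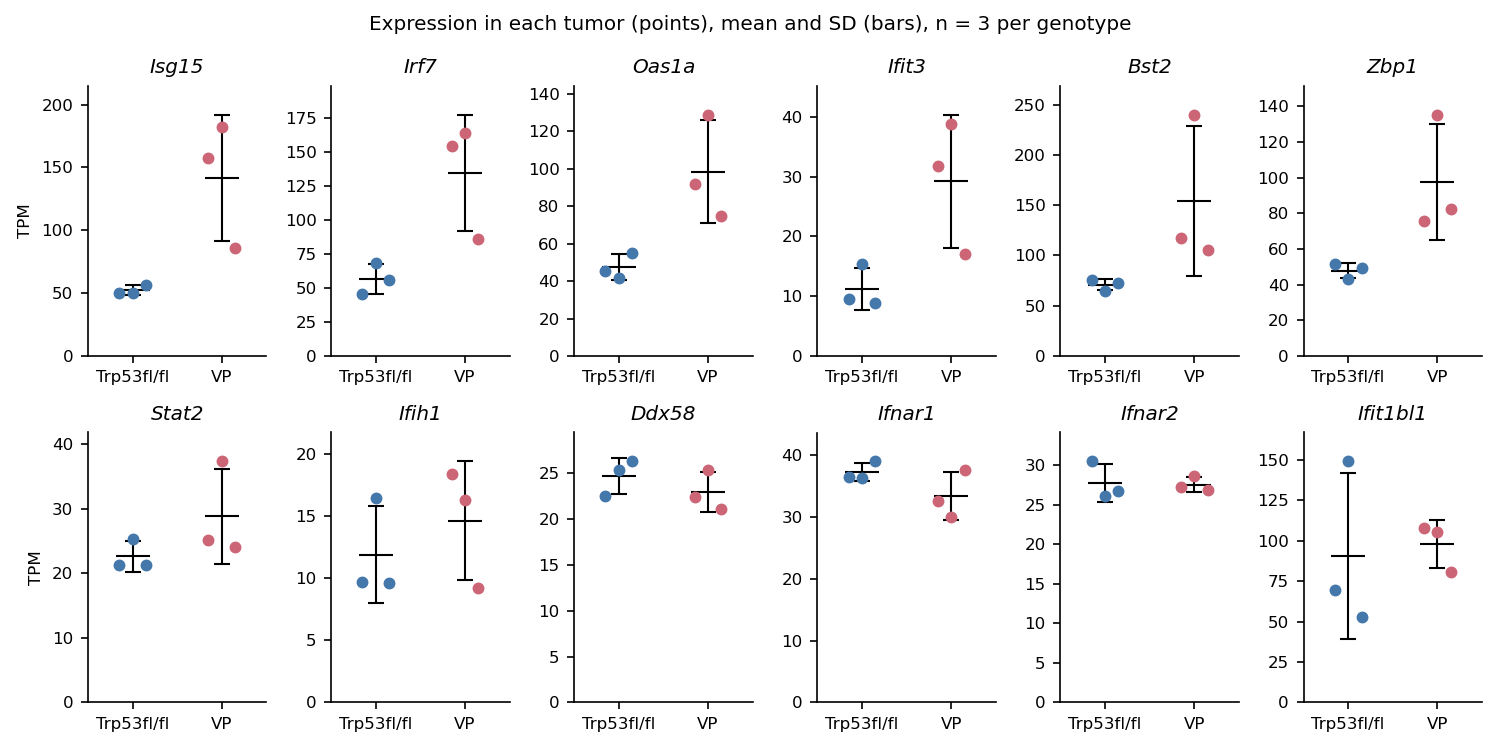
TPM of 12 of the genes in each tumor (points), with the mean and SD (bars, n = 3 per genotype); each axis starts at 0. In the upper row all 3 VP tumors lie above all 3 Trp53fl/fl tumors, and in the lower row the genotypes overlap.

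Both genes of the ISG15 system were higher in VP tumors at an unadjusted p under 0.05, without overlap. Isg15, a ubiquitin-like protein that is joined to other proteins during the interferon response, was at 50.3, 49.8 and 56.7 TPM in Trp53fl/fl tumors and at 157, 182 and 85.8 TPM in VP tumors. The controls lay close together and the VP tumors spread over a wide range above them, with means of 52.3 ± 3.83 and 142 ± 49.996 TPM (SD, n = 3 each) and a ratio of 2.71. The log2 fold change of Isg15 was 1.36 ± 0.27 (SE, 95% confidence interval from 0.73 to 1.98, limma unadjusted p = 0.00131, adjusted p = 0.182). Without VP replicate 3 it was 1.68 and passed the adjusted test (limma adjusted p = 0.0212). With single tumors left out it ran from 1.14 to 1.68, and the limma adjusted p was 0.479 without Trp53fl/fl replicate 1. Usp18, which removes ISG15 from its targets and blocks the receptor at IFNAR2, was at 21.6, 28.5 and 26.3 TPM and at 52.7, 49.5 and 38.5 TPM. Its difference was 0.85 ± 0.16 (SE, limma unadjusted p = 0.00112, adjusted p = 0.168).

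The genes of the enzymes that act on double-stranded RNA did not pass the unadjusted threshold. Eif2ak2, which encodes the kinase PKR, ranged from 12.1 to 19.6 TPM over the 6 tumors and differed by 0.18. Adar, which encodes the editing enzyme ADAR1, ranged from 24.9 to 33.9 TPM and differed by 0.26, with all 3 VP tumors above the controls.

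Of 7 further antiviral effectors, 5 were higher in VP tumors at an unadjusted p under 0.05. Bst2, which encodes tetherin, a protein that holds budding virus at the cell surface, was at 75.2, 64.6 and 72.6 TPM in Trp53fl/fl tumors and at 117, 239.9 and 105 TPM in VP tumors. Its difference of 1.01 ± 0.29 (SE, limma adjusted p = 0.309) came with all 3 VP tumors above the controls, replicate 2 the highest by far. Rsad2, which encodes viperin, was at 2.19, 3.42 and 1.81 TPM and at 7.75, 6.93 and 4.02 TPM (1.05). Its neighbor on chromosome 12, Cmpk2, a mitochondrial nucleotide kinase, was at 6.59, 7.46 and 6.93 TPM and at 11.99, 12.8 and 8.05 TPM (0.56). In both genes the genotypes did not overlap. The dynamin-like GTPase gene Mx1 was at 1.65, 3.70 and 1.48 TPM and at 5.10, 4.28 and 3.41 TPM (0.73). Mx2, annotated as a polymorphic pseudogene, was at 1.30, 1.73 and 1.25 TPM and at 2.73, 3.37 and 1.80 TPM (0.56). Both Mx genes were of low level in all tumors. The exonuclease gene Isg20 (21.1 to 52.4 TPM, 0.52) and the TRIM family gene Trim30a (5.44 to 15.7 TPM, 0.57) had unadjusted limma p-values of 0.0767 and 0.107.

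The PARP genes and their partner all differed by less than the median of the 39 genes. Parp14, a mono-ADP-ribosyltransferase, was at 16.03, 18.5 and 14.3 TPM in Trp53fl/fl tumors and at 21.3, 28.3 and 18.3 TPM in VP tumors, a difference of 0.44 (limma unadjusted p = 0.0471). Parp9 ranged from 32.7 to 51.1 TPM over the 6 tumors and differed by 0.32, and Dtx3l, the ubiquitin ligase that pairs with PARP9, ranged from 22.6 to 32.9 TPM and differed by 0.21. The 3 genes lie within 139.7 kb on chromosome 16.

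All 4 remaining genes were higher in VP tumors at an unadjusted p under 0.05. Ifi27l2a, the most abundant of the 39, was at 70.2, 63.4 and 109 TPM in Trp53fl/fl tumors and at 104, 224 and 129 TPM in VP tumors. VP replicate 1 lay below the highest control for Ifi27l2a, and the difference was 0.87 ± 0.32 (SE, limma adjusted p = 0.352). Ifi44 was at 2.67, 5.67 and 3.71 TPM and at 11.5, 18.7 and 5.03 TPM (1.23), also with 1 VP tumor inside the range of the controls. Ifi35, which encodes a partner of NMI, was at 33.0, 31.5 and 37.1 TPM and at 59.2, 74.5 and 45.3 TPM (0.77). Rtp4 was at 26.4, 31.5 and 21.8 TPM and at 49.4, 71.6 and 43.1 TPM, a difference of 1.00 ± 0.22 (SE, limma adjusted p = 0.234). In Ifi35 and Rtp4 the genotypes did not overlap.

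**Figure D3:**
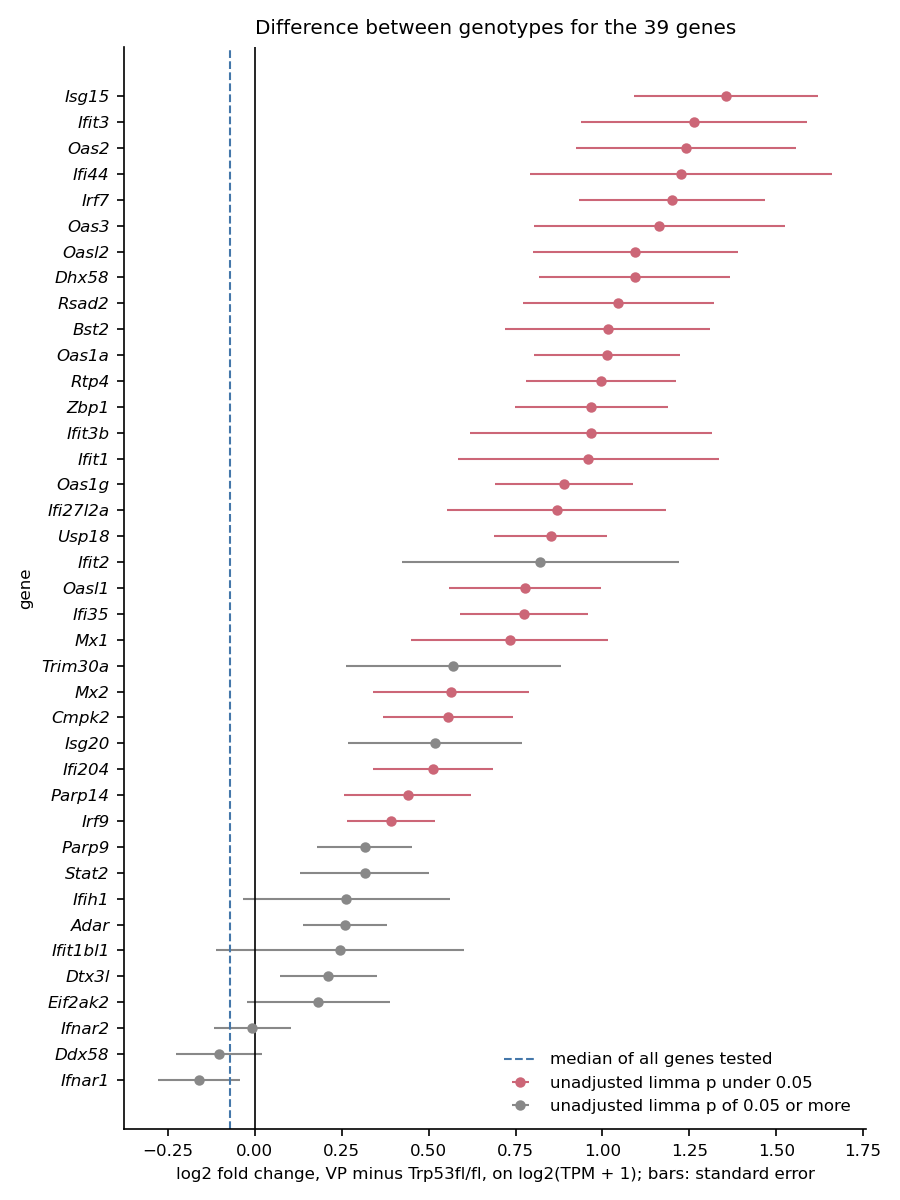
Log2 fold change (VP minus Trp53fl/fl) of the 39 genes on the log2(TPM + 1) scale with its standard error (bars), in order of size. Red points had an unadjusted limma p under 0.05, and the dashed line is the median of all genes tested at -0.07; Isg15 is at the top with 1.36 and Ifnar1 at the bottom with -0.16.

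The interferons themselves were hardly measured in these tumors. Among 21 interferon genes, 17 were listed at 0 in all 6 tumors, among them Ifnb1, and the highest value of any was 1.34 TPM (Ifng in VP replicate 2). None of the 21 entered the test. Without the depth of the libraries, a value of 0 sets no upper limit.

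Of 9 genes for other receptors, kinases and STATs, 0 passed the unadjusted threshold. Jak1 differed by -0.17 and Tyk2 by -0.08. Of 6 negative regulators, the SOCS genes among them, 0 passed the threshold.

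Of 18 genes for other sensors, adaptors and IRFs, 2 were higher at an unadjusted p under 0.05 and 0 were lower. Myd88, the adaptor of most Toll-like receptors, was at 30.8, 28.4 and 30.3 TPM in Trp53fl/fl tumors and at 36.8, 45.04 and 41.5 TPM in VP tumors, a difference of 0.44 (limma adjusted p = 0.278). Irf8, a factor of myeloid cells, differed by 0.32 (limma adjusted p = 0.345). The DNA sensor Cgas stood at 2.74 to 3.96 TPM over the 6 tumors and differed by -0.07. Its partner Sting1, at 90.9 to 142 TPM, differed by -0.18. Mavs, the adaptor of RIG-I and MDA5, differed by 0.08, and Irf3, the factor that both routes activate, by -0.07. The endosomal receptor genes Tlr3, Tlr7 and Tlr9 differed by 0.07, -0.04 and -0.21. Of 7 nuclease genes, Trex1, which degrades cytosolic DNA, was the only one past the unadjusted threshold, at 15.01, 12.5 and 17.2 TPM and at 21.5, 21.2 and 22.3 TPM (0.52, limma adjusted p = 0.287).

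A second list of interferon-stimulated genes, none of them among the 39, was read from the same test. Of its 42 genes with values, 40 were tested, and 18 (45%) were higher in VP tumors at an unadjusted limma p under 0.05, beside 4.51% of all genes tested, while 0 were lower and 0 passed the adjusted test. Their median log2 fold change was 0.34. The largest differences were those of Cxcl10, a chemokine that draws T cells (1.50), Xaf1, a pro-apoptotic protein (1.30), Phf11d (1.03), Oas1c (0.97), Oas1b (0.88), Ube2l6, the conjugating enzyme for ISG15 (0.86), and Lgals3bp (0.86). Lgals3bp, a secreted glycoprotein, had the lowest adjusted p of the list (0.0878), at 299, 281 and 259 TPM in Trp53fl/fl tumors and at 539.98, 549 and 437 TPM in VP tumors. The other genes past the unadjusted threshold were Lgals9 (0.71), Sp100 (0.60), Nmi (0.54), Tor3a (0.46), Helz2 (0.44), Epsti1 (0.43), Parp10 (0.42), Trafd1 (0.41), Parp12 (0.39), Shisa5 (0.37) and Trim25 (0.29). The 18 genes became 9 after division by the epithelial genes, beside 2.02% of all genes tested. They became 11 without VP replicate 2, beside 3.19%. Ifitm1, Ifitm2 and Ifitm3, which block viral entry and were among the most abundant genes of this list, differed by 0.02, 0.00 and 0.09.

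**Figure D4:**
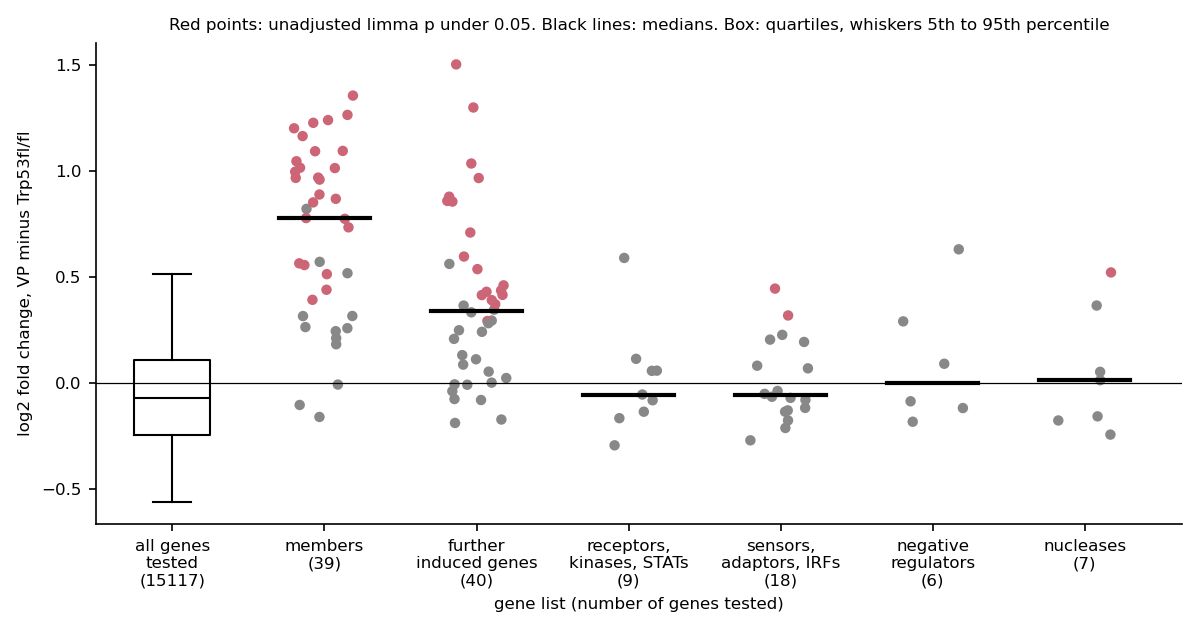
Log2 fold change (VP minus Trp53fl/fl) of each tested gene by list, beside all 15117 genes tested (box with quartiles, whiskers at the 5th and 95th percentile). Red points had an unadjusted limma p under 0.05 and black lines are medians, which stood at 0.78 for the 39 genes, 0.34 for the further induced genes and -0.07 for all genes.

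Markers of cell types were read in the same tumors, since in bulk tissue fewer cells of a type and less RNA per cell cannot be told apart. The summed TPM of 8 neutrophil markers was 362 to 695 in Trp53fl/fl tumors and 1133 to 1947 in VP tumors, without overlap, and 6 of the 8 were higher at an unadjusted limma p under 0.05. Ly6g (0.21) and Csf3r (0.07) did not pass, and both overlapped between the genotypes. The sum of 12 epithelial markers was 11064 to 11440 TPM and 12554 to 13607 TPM, also without overlap, with 3 of 12 higher. That of 5 endothelial markers was 72.8 to 88.46 TPM and 88.52 to 94.6 TPM, with 1 of 5 higher, Vwf (0.36, without overlap). The sums for leukocytes (281 to 326 and 256 to 386 TPM), macrophages and monocytes (488 to 517 and 504 to 622 TPM), T and NK cells (21.4 to 25.7 and 11.8 to 27.3 TPM), B and plasma cells, fibroblasts and smooth muscle overlapped between the genotypes. Within these lists, 2 of 10 macrophage and monocyte markers were higher at an unadjusted limma p under 0.05, Cd68 (0.53, without overlap) and Ly6c2 (0.55). Of 6 fibroblast markers 2 were lower, Pdgfra (-0.56) and Lum (-0.57), both without overlap, and in the other overlapping lists 0 markers passed. Of 5 markers of plasmacytoid dendritic cells, a major source of type I interferon, 4 (Siglech, Cox6a2, Pacsin1 and Ccr9) were under 1 TPM in all tumors. Klk1, at 231 to 583 TPM, overlapped, and at a level so unlike the other 4 it cannot stand for these cells. The part of neutrophil, epithelial, endothelial, macrophage and fibroblast content in the differences of the 39 genes was not tested.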

How the data were processed

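RNA-seq of 6 tumors was analyzed from the deposited table, in which the authors gave TPM per gene. Per the labels and methods, total RNA was poly(A)-selected, sequenced from both ends and processed with tools that include HISAT2 and StringTie. The build named in the submitters' notes is mm9, and versions and annotation are not given in the sources used here. Columns were matched to tumors by the code that the labels give, and 0 columns were left over. Depth is unknown, and 467 table rows have no gene name. From the deposited TPM, log2(TPM + 1) was fitted with limma 3.58.1 in R 4.3.3 (empirical Bayes with trend, Benjamini-Hochberg over 15117 genes). The method was tested on simulated data. Coordinates came from GENCODE M21 (GRCm38), matched by gene ID, because the table gives none, and promoters came from RefSeq (GRCm38.p6), matched by symbol. Genes given with the TPM of each tumor were those with an unadjusted p under 0.05, the 8 of highest mean TPM, the receptor chains, Irf7, Irf9, Stat2, the RNA sensors and close paralogs. From the other lists, genes past the unadjusted threshold and main pathway genes were named, and the Ifitm genes were added after their values were seen. The genes, lists and rules were chosen with earlier results of these data known. Alternatives were another pseudocount, other filters, scalings and weights, a replicate block, no trend, summed paralogs and leaving out each tumor.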

Additional observations from a re-analysis of the deposited data

How the results depend on the processing

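The tumors numbered 3 per genotype and their sequencing depth is unknown. The count of 25 genes called was 7 with no filter on low values, 10 with the replicate block and 323 with array quality weights, and ran from 3 to 23 with single tumors left out. The count of 0 interferon-stimulated genes called was 13 with array quality weights and ran from 0 to 1 with single tumors left out. Those weights were 7.29 for Trp53fl/fl replicate 1 and between 0.44 and 1.04 elsewhere, and their estimation stopped before it converged. With single tumors left out, the 26 genes higher at an unadjusted p under 0.05 ran from 16 to 30. The 16 came without VP replicate 2, beside 3.19% of all genes tested, and the 30 without VP replicate 3, beside 5.47%. They were 29 with the replicate block, beside 4.12%, and in that run 0 passed the adjusted test. Same-numbered tumors did not deviate together (correlations across genes of 0.02, -0.05 and 0.02). With 3 tumors per genotype such values cannot show whether same-numbered tumors shared a batch. The median of the 39 genes ran from 0.60 to 0.95 with single tumors left out. After division by the epithelial genes the 26 genes were 18, beside 2.02% of all genes tested. In that scaling the 23 genes without overlap were 16, and for 3 genes all VP tumors lay below the controls. The shares of all genes without overlap were not computed there, and the median of all genes was -0.23. These 2 counts therefore have no background beside them. Ifnar1 alone of the 39 was lower there at an unadjusted p under 0.05 (-0.33). Ifnar2 turned to 0.0601 after median-of-ratios rescaling and ran from -0.0491 to 0.0591 with single tumors left out. Ddx58 turned to 0.0152 with array quality weights, and Ifit1bl1 to -0.0661 without Trp53fl/fl replicate 3, its range over left-out tumors being -0.0661 to 0.67. The causes were not tested. The other 36 genes kept their sign in every alternative run. The adjusted p of Trp53 was 0.104 with no filter on low values and 0.0883 with the replicate block, at the same difference of -1.87. It was 0.0968 without Trp53fl/fl replicate 1, 0.0561 without Trp53fl/fl replicate 3, 0.0605 without VP replicate 1 and 0.108 without VP replicate 2, with differences from -2.02 to -1.74 over all left-out tumors.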

Other observations

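The response element was also looked for outside the 39 genes. Of 411 other tested genes whose promoter window held GAAA, 2 bases, GAAA on either strand, 34 (8.27%) were higher in VP tumors at an unadjusted limma p under 0.05, against 443 of 10531 (4.21%) without it. The share was the larger with the motif in every alternative run, from 4.87% against 1.69% after division by the epithelial genes to 15.6% against 9.03% with array quality weights. Of 29 genes with at least 2 matches, 7 (24.1%) were higher. The median log2 fold change over the 411 genes was 0.01, beside -0.07 without the motif. At the same threshold 5.6% of the 411 genes were lower in VP tumors, against 8.15% without the motif. Lgals9, Oas1c, Cxcl10, Shisa5 and Myd88 are among the 34 and were named above, so these shares are not separate from the earlier lists. The 34 also hold Gbp3, Irgm1, Igtp and H2-T23, which were on none of those lists. Which interferon, if any, acts on the 34 genes was not tested.

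The 8 of the 34 genes with the smallest p were picked after their values were seen. Apol9a and Apol9b, a pair of apolipoprotein L genes that share much of their sequence, were at 6.61, 4.2 and 6.59 TPM and at 4.19, 4.82 and 7.29 TPM in Trp53fl/fl tumors. In VP tumors Apol9a was at 21.7, 33.0 and 11.3 TPM and Apol9b at 17.9, 26.5 and 10.03 TPM, with the same order of the 3 tumors as Irf7 and Isg15. Their log2 fold changes were 1.66 and 1.51 (limma adjusted p = 0.234 and 0.246). The gene 2610528A11Rik was at 135, 169 and 165 TPM in Trp53fl/fl tumors and at 479.9, 571 and 316 TPM in VP tumors (1.50, limma adjusted p = 0.0878). Tmco4 was at 14.2, 12.4 and 17.2 TPM and at 26.2, 26.2 and 23.3 TPM (0.76). The antigen presentation genes B2m (0.82) and H2-T22 (0.70) and the further induced genes Lgals9 (0.71) and Oas1c (0.97) made up the rest.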
